A study of Arabidopsis thaliana with 36 samples.

Results

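A set of 9 Arabidopsis genes of jasmonate inactivation and leaf storage was followed through all 12 groups of a low-dose radiation series: the cytochrome P450 genes CYP94C1 (AT2G27690), CYP94B3 (AT3G48520) and CYP94B1 (AT5G63450), the jasmonate oxidase genes JOX1 (AT3G11180), JOX2 (AT5G05600), JOX3 (AT3G55970) and JOX4 (AT2G38240), and the vegetative storage protein genes VSP1 (AT5G24780) and VSP2 (AT5G24770). They were chosen by locus, with earlier results of these data known, and are 9 of the 33977 genes in the deposited table. Of the 9, 8 passed a filter of at least 1 CPM (reads scaled to a library total of 1000000) in at least 3 libraries, as did 18875 genes in all, and JOX1 did not. The plants were Col-0, the common laboratory accession, grown in short days (8 h of light, 16 h of dark) and 4 weeks old at treatment. They received 10 cGy or 100 cGy of gamma radiation from a 137Cs source at 1.4 cGy per second, or a mock treatment without exposure. Whole rosettes were harvested 1, 3, 24 or 72 h later, with 3 libraries in each of the 12 groups and 36 in all. The labels number the libraries of a group as replicates but do not say whether they came from separate plants, so the p-values measure the spread between these libraries only. The hour of day of each harvest is not given in the sources used here.

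Jasmonates are lipid-derived hormones of wounding, defence and growth, and the active form is the isoleucine conjugate JA-Ile. CYP94B3 and CYP94B1 hydroxylate JA-Ile, CYP94C1 oxidises it further to the carboxylated form, and the JOX enzymes (2-oxoglutarate-dependent dioxygenases) hydroxylate free jasmonic acid, so that both families remove the hormone or its precursor. VSP1 and VSP2 encode acid-phosphatase-type proteins that accumulate in leaves, and their transcripts are standard markers of jasmonate and wound responses in rosettes.

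The promoters of 3 of the genes are shown: CYP94C1 was the one member called after irradiation, VSP1 had the largest called change between neighbouring times in mock plants, and VSP2 is its neighbour and nearest relative among the 9. Each is the 250 bases before the annotated gene start, 5′ to 3′ on the gene's own strand, from the RefSeq sequence of build TAIR10.1. Capitals mark matches to 3 motif families known for binding MYC-type factors, searched on both strands. The first was the G-box, CACGTG. Its relative AACGTG was the next motif searched, and the last was CATGTG.
CYP94C1, chr2:11809029-11809278, plus strand: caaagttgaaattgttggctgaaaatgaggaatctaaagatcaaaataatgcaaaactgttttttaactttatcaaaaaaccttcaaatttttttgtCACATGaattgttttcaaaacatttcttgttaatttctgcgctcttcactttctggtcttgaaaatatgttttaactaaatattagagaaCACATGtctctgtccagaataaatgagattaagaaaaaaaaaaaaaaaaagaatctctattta
VSP1, chr5:8509202-8509451, minus strand: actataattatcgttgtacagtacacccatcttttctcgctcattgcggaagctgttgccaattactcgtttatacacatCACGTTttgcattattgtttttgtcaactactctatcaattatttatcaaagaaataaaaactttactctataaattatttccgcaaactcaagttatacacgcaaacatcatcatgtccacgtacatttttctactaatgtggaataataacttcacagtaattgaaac
VSP2, chr5:8502225-8502474, minus strand: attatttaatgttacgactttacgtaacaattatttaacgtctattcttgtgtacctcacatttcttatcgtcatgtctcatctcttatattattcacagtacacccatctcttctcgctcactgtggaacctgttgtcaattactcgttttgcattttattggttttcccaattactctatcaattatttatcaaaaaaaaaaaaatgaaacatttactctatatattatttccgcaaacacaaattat
CYP94C1 held CACATG, the reverse complement of CATGTG, at 153 and at 63 bases before the start, and VSP1 held CACGTT, the reverse complement of AACGTG, at 170 bases. The VSP2 window held none of the 3 motifs. Of 27443 promoters of this length, 6.49% held CACGTG, 7.54% held AACGTG on either strand and 11.1% held CATGTG on either strand. Among the other members, JOX1 held both CACGTG and CACGTT, JOX2 held CACATG, JOX3 held AACGTG, and CYP94B3, CYP94B1 and JOX4 held none. CCGAC, the core of a cold and drought element, was present in CYP94B1 alone of the 9 and in 12.0% of all promoters, and GCCGCC, the core of an ethylene-response element, was in none of the 9 and in 1.87% of all promoters.

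The libraries held 22120000 to 36660000 reads, to 4 digits, and a count of 3 reads corresponded to between 0.0818 and 0.136 CPM. The members' CPM values all came out as whole reads within 0.1 of a read: the medians over libraries ran from 56 reads for CYP94C1 to 5275 for VSP2 among the 8 tested genes, and JOX1 had 0 to 3 reads. The summed level of 5 green leaf genes (RBCS1A, CAB2, LHCB2.1, RCA and CA1) was 32550 to 43330 CPM over the libraries. Of 5 root markers, RHD6 and EXPA7 were at 0 in all 36 libraries and COBL9 and IRT1 never exceeded 0.103 CPM, while PYK10 had 44.5 to 149 CPM, and 6 flower markers summed to 0.0724 to 1.05 CPM. Replicate 1 of the 10 cGy group at 3 h had 0.608% of its reads on chloroplast genes, against at most 0.331% in the other libraries, and its part in the results was not tested beyond leaving it out. Because each library is a whole rosette, more transcript per cell and more cells with the transcript cannot be told apart.

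At 1 h after exposure CYP94C1, which turns hydroxylated JA-Ile into its carboxylated form, was the member that rose at both doses. Its level was 1.54, 1.05 and 1.37 CPM in the 3 mock libraries at 1 h, 7.98, 14.3 and 4.73 CPM after 10 cGy, and 14.4, 7.42 and 5.93 CPM after 100 cGy. The lowest irradiated library stood above the highest mock library at both doses, and the irradiated groups overlapped each other. The means were 1.32 ± 0.25 CPM (SD, n = 3) in mock plants, 9.01 ± 4.87 CPM after 10 cGy and 9.26 ± 4.55 CPM after 100 cGy. On the log2(CPM + 0.5) scale the difference from mock was 2.26 after 10 cGy (SE 0.46, limma adjusted p = 0.000524) and 2.33 after 100 cGy (SE 0.46, limma adjusted p = 0.000508). Both calls held under each of the 13 alternatives computed for them, with differences of 1.88 to 2.63 and 1.98 to 2.63. This 1 of 8 called genes compares with a background of 13.6% of all tested genes called higher after 10 cGy and 10.3% after 100 cGy, so the number of members called is near that of genes at large. The root marker list, almost all PYK10, summed to 80.1 to 84.5 CPM in mock plants, 45.6 to 55.3 CPM after 10 cGy and 64.0 to 85.4 CPM after 100 cGy at 1 h, so the 10 cGy libraries were below mock without overlap, while the green leaf sums overlapped. Its part in the result was not tested. The direct comparison of the doses at 1 h gave 0.07 for CYP94C1 (95% interval -0.88 to 1.02, limma adjusted p = 0.988).

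The paralogs CYP94B1 and CYP94B3, which carry out the first hydroxylation of JA-Ile, had higher means at 1 h without a call. CYP94B1 was at 1.15, 0.87 and 1.51 CPM in mock plants, 1.77, 7.19 and 2.23 CPM after 10 cGy and 5.21, 8.40 and 2.77 CPM after 100 cGy, so that all irradiated libraries lay above all mock libraries. Its differences from mock were 1.13 (SE 0.71, limma adjusted p = 0.268) and 1.73 (SE 0.71, limma adjusted p = 0.0984). CYP94C1 and CYP94B1 were thus the 2 of 8 members without overlap at 1 h at each dose, against 22.2% of all tested genes after 10 cGy and 21.7% after 100 cGy. CYP94B3 overlapped its mock group, with differences of 1.14 and 1.43 and limma adjusted p-values of 0.431 and 0.365.

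Of the jasmonate oxidase genes, JOX2 stood highest against mock at 1 h. It had 10.08, 9.50 and 23.5 CPM in mock plants, 29.3, 49.4 and 23.3 CPM after 10 cGy, and 45.3, 44.9 and 22.1 CPM after 100 cGy, and mock replicate 3 overlapped both irradiated groups. Its differences were 1.27 (SE 0.67, limma adjusted p = 0.174) and 1.40 (SE 0.67, limma adjusted p = 0.159). When the fit used the libraries of 1 h only, JOX2 passed the threshold at 10 cGy (adjusted p = 0.0338) and JOX2 and CYP94B1 both passed it at 100 cGy (adjusted p = 0.0285 and 0.0222). JOX4 overlapped at 1 h, with differences of 1.17 and 0.95, and JOX3 had differences of -0.23 and 0.27. In both of these genes mock replicate 3 was far above the other mock libraries, at 30.1 CPM against 4.96 and 5.11 CPM for JOX3 and at 7.58 CPM against 0.88 and 1.68 CPM for JOX4.

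JOX1 was at or near 0 throughout. It had no read in 30 of the 36 libraries and at most 3 reads in the others, so no difference between groups was detectable at this depth. Its closest paralog, JOX2, shared 80.2% of aligned coding bases with JOX1 and no run of 50 bases, and the other pairs of JOX genes shared 62.7% to 70.9%.

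VSP1 and VSP2 were not called at 1 h. VSP1 had 5.12, 2.71 and 5.55 CPM in mock plants, 6.82, 5.57 and 1.27 CPM after 10 cGy and 8.21, 12.3 and 5.54 CPM after 100 cGy, and the groups overlapped. The differences from mock were -0.16 and 0.88 for VSP1 and -0.61 and 0.23 for VSP2, and the lowest limma adjusted p of the 4 was 0.511. After 10 cGy at 1 h these genes and JOX3 had the 3 lowest differences of the 8, and CYP94C1 had the highest.

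**Figure D1:**
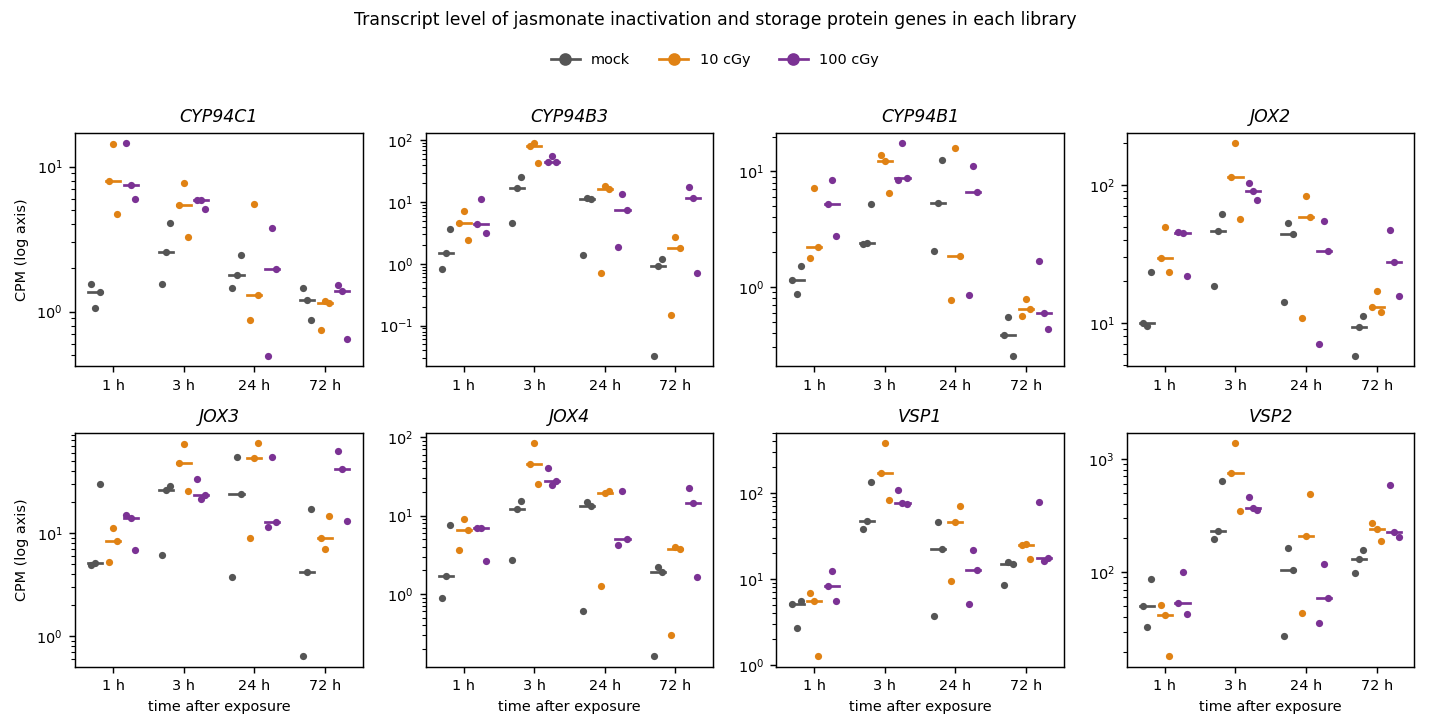
Level of each tested gene in CPM (log axis, 1 panel per gene) in every library, by hours after exposure; each point is 1 library, the bar is the median of 3, and colours give mock (grey), 10 cGy (orange) and 100 cGy (purple). At 1 h the CYP94C1 points of both doses, 4.73 CPM and above, lie over all 3 mock points, which reach 1.54 CPM. Within groups the spread of each gene, taken over the groups of a time, was largest at 24 h. Not every group was wide there: the CYP94C1 mock points at 24 h lie at 1.46 to 2.45 CPM.

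At 3 h no member was called at either dose, but all 8 had means above mock at both doses. The median difference of the 8 was 1.51 after 10 cGy and 1.12 after 100 cGy on the log2 scale, beside a median of -0.03 and 0.09 over all tested genes. In limma, 0 of 8 passed the adjusted threshold at each dose, while 1.49% of all tested genes were called in either direction after 10 cGy and 12.4% after 100 cGy. Without adjustment, 4 and 2 of the 8 had a p below 0.05. The share of all tested genes at that looser limit is not given here, so these 2 counts have no background. All libraries of the dose lay above all mock libraries for 3 of 8 members after 10 cGy (CYP94B3, CYP94B1 and JOX4) and for 5 of 8 after 100 cGy (these 3 with CYP94C1 and JOX2). The same held for 7.22% and 22.2% of all tested genes. The 2 doses share their mock libraries, and in all 8 genes mock replicate 1 at 3 h was below its group mean, by a mean deviation of -0.93 on the log2 scale, and mock replicate 3 above it, by 0.84. Without mock replicate 1 the difference after 100 cGy turned to -0.08 for JOX3 and came to 0.10 for VSP1 and 0.04 for VSP2. Without mock replicate 3 these were 0.98, 1.00 and 0.88, and none was called either way. Tissue marker levels also differed between the groups at this time: the 5 green leaf genes summed to 37180 to 39080 CPM in mock plants, 33840 to 35410 CPM after 10 cGy and 32550 to 34460 CPM after 100 cGy, and the root list, almost all PYK10, to 53.0 to 83.2, 108 to 121 and 86.1 to 103 CPM. Their part in the differences at 3 h was not tested.

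CYP94B3 showed the widest separation of the P450 genes at 3 h. It was at 4.54, 16.8 and 25.5 CPM in mock plants, 80.9, 88.9 and 42.9 CPM after 10 cGy and 43.8, 56.3 and 44.9 CPM after 100 cGy. The irradiated libraries all stood above the mock libraries, and the means were 15.6 ± 10.5, 70.9 ± 24.6 and 48.3 ± 6.92 CPM (SD, n = 3). The differences were 2.37 (SE 0.97, limma adjusted p = 0.214) and 1.88 (SE 0.97, limma adjusted p = 0.198).

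CYP94B1 and CYP94C1 followed at a lower difference. CYP94B1 had 2.37, 2.43 and 5.18 CPM in mock plants, 13.9, 12.3 and 6.50 CPM after 10 cGy and 8.41, 17.5 and 8.81 CPM after 100 cGy. Neither dose overlapped mock, while the doses overlapped each other, and the differences from mock were 1.59 (limma adjusted p = 0.265) and 1.66 (limma adjusted p = 0.124). The second of these passed the threshold when the fit used the 3 h libraries only (adjusted p = 0.0481). CYP94C1 had 1.55, 2.58 and 4.05 CPM in mock plants, 5.43, 7.74 and 3.28 CPM after 10 cGy and 5.88, 5.87 and 5.08 CPM after 100 cGy. After 10 cGy its lowest library fell inside the mock range, after 100 cGy none did, and the differences were 0.89 (limma adjusted p = 0.344) and 0.99 (limma adjusted p = 0.157). The change of its dose effect from 1 h to 3 h, tested as an interaction for the mean of both doses, was -1.36 (SE 0.57, limma adjusted p = 0.115), so a smaller effect at 3 h than at 1 h was not established.

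JOX4 and JOX2 were the oxidase genes with the larger values at 3 h. JOX4 had 2.75, 12.2 and 15.5 CPM in mock plants, 46.3, 83.5 and 25.1 CPM after 10 cGy and 40.5, 24.6 and 27.4 CPM after 100 cGy. Neither dose overlapped mock, while the doses overlapped each other. The differences from mock were 2.42 (SE 1.02, limma adjusted p = 0.229) and 1.82 (SE 1.02, limma adjusted p = 0.24). JOX2 had 18.4, 46.3 and 62.1 CPM in mock plants, 115, 200 and 56.6 CPM after 10 cGy and 103, 90.2 and 77.7 CPM after 100 cGy. The lowest 10 cGy library of JOX2 lay inside the mock range, the 100 cGy libraries lay above it, and the differences were 1.53 and 1.24 (limma adjusted p = 0.247 and 0.218). JOX3 overlapped at both doses, with differences of 1.39 and 0.60.

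The storage protein genes reached their highest group means of the series in the 10 cGy plants at 3 h. VSP1 had 37.6, 47.1 and 133 CPM in mock plants, 170, 377 and 82.3 CPM after 10 cGy and 107, 75.6 and 75.1 CPM after 100 cGy. VSP2 had 197, 230 and 634 CPM in mock plants, 746, 1366 and 344 CPM after 10 cGy and 460, 368 and 354 CPM after 100 cGy. In both genes mock replicate 3 was the high mock library and 10 cGy replicate 3 the lowest of its own group, so these groups overlapped. Mock replicate 3 also lay above all 100 cGy libraries in both genes, so 100 cGy overlapped mock too. The differences were 1.49 and 1.203 after 10 cGy and 0.45 and 0.35 after 100 cGy, with limma adjusted p-values from 0.339 to 0.767. The direct difference of 100 from 10 cGy was -1.03 (95% interval -2.60 to 0.53) for VSP1 and -0.85 (95% interval -2.25 to 0.55) for VSP2.

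VSP1 and VSP2 lie 5365 bases apart on chromosome 5 and share 90.4% of aligned coding bases, with 5 of 764 windows of 50 bases identical between them. The values of both genes were whole reads in all 36 libraries, to within 0.0009 of a read for VSP1 and 0.0032 for VSP2. How the counting treated reads that match both genes was not tested. With both summed into 1 row the difference at 3 h was 1.26 after 10 cGy and 0.37 after 100 cGy, and the sum was not called at either dose (limma adjusted p = 0.383 and 0.76).

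**Figure D2:**
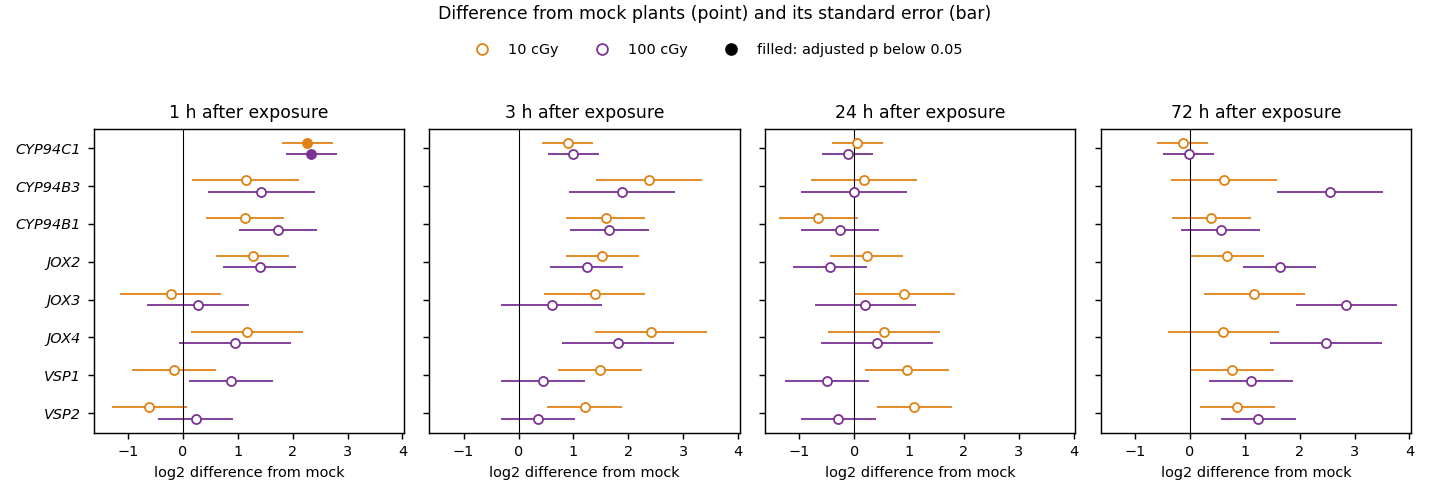
Difference from mock plants for each tested gene on the log2(CPM + 0.5) scale (x axis), in 1 panel per time after exposure; points are the limma estimates for 10 cGy (orange) and 100 cGy (purple), bars are 1 SE, and filled points have an adjusted p below 0.05. The filled points are those of CYP94C1 at 1 h, at 2.26 and 2.33, and every point at 3 h lies to the right of 0.

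At 24 h no member separated from mock at either dose: 0 of 8 lay wholly above and 0 of 8 wholly below the mock libraries. Of all tested genes 15.3% lay above and 4.41% below after 10 cGy, and 6.72% and 10.2% after 100 cGy. In limma 0 of 8 were called at each dose, against 3.29% and 0.599% of all tested genes called in either direction. Without adjustment, 0 of 8 had a p below 0.05 at each dose, and the share of all tested genes at that limit is not given here. The median difference of the 8 was 0.39 after 10 cGy and -0.19 after 100 cGy. CYP94C1 overlapped its mock group, with 1.46, 1.80 and 2.45 CPM in mock plants, 0.87, 5.49 and 1.31 CPM after 10 cGy and 0.50, 3.76 and 1.96 CPM after 100 cGy. Its differences were 0.05 (95% interval -0.90 to 1.00) and -0.12 (95% interval -1.07 to 0.83). VSP2 had the highest difference after 10 cGy, 1.10, with libraries at 43.9, 211 and 490 CPM against 27.3, 162 and 104 CPM in mock plants, and the groups overlapped.

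The libraries numbered 1 at 24 h were low for these genes in all 3 groups. They were below the group mean in all 8 genes, with mean deviations of -1.55 in mock plants, -1.81 after 10 cGy and -1.196 after 100 cGy on the log2 scale. JOX4, for example, had 0.61 CPM in mock replicate 1 against 15.0 and 13.3 CPM in replicates 2 and 3, 1.25 CPM against 19.3 and 20.7 CPM after 10 cGy, and 4.27 CPM against 20.6 and 5.07 CPM after 100 cGy. The share of chloroplast reads in these libraries was 0.198%, 0.213% and 0.268%, within the range of the others. With the 3 libraries left out together, again no member was called at 24 h at either dose, with a lowest limma adjusted p of 0.344.

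At 72 h the oxidase genes and CYP94B3 were higher after 100 cGy in some libraries, without a call. In limma 0 of 8 members passed at either dose, against 9.38% and 1.58% of all tested genes called in either direction. An unadjusted p below 0.05 was reached by 0 after 10 cGy and 4 after 100 cGy. The share of all tested genes at that looser limit is not given here. JOX3 had 0.65, 4.20 and 17.2 CPM in mock plants, 9.02, 7.07 and 14.7 CPM after 10 cGy and 62.4, 41.8 and 13.1 CPM after 100 cGy. Mock replicate 3 lay above 100 cGy replicate 3, and the difference after 100 cGy was 2.85 (SE 0.92, limma adjusted p = 0.0968). JOX3 passed the threshold without mock replicate 3 (3.83, adjusted p = 0.0256) or without 100 cGy replicate 3 (3.49, adjusted p = 0.0467). These were the 2 calls among 13 alternatives. Over all 13 its difference ran from 1.85 to 3.83, with limma adjusted p as high as 0.401.

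The first-step hydroxylase gene CYP94B3 and the oxidase genes JOX4 and JOX2 followed. CYP94B3 had 0.032, 0.94 and 1.21 CPM in mock plants and 17.8, 11.5 and 0.71 CPM after 100 cGy, a difference of 2.55 (SE 0.97, limma adjusted p = 0.156) that was 3.76 (adjusted p = 0.0239) without 100 cGy replicate 3. That was the 1 call among 13 alternatives. Over all 13 the difference ran from 1.80 to 3.76, with limma adjusted p as high as 0.561. The 0.032 CPM of mock replicate 1 was 1 read, and JOX4 had 5 reads in the same library. JOX4 had 0.16, 2.20 and 1.89 CPM in mock plants and 22.4, 14.7 and 1.63 CPM after 100 cGy, a difference of 2.48 (SE 1.02, limma adjusted p = 0.191). In both genes replicates 1 and 2 of the 100 cGy plants stood well above mock and replicate 3 stood inside the mock range. JOX2 had 5.79, 9.35 and 11.2 CPM in mock plants and 47.5, 27.6 and 15.6 CPM after 100 cGy, with no overlap and a difference of 1.64 (SE 0.67, limma adjusted p = 0.186).

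VSP2 at 72 h had 97.8, 131 and 158 CPM in mock plants, 271, 243 and 188 CPM after 10 cGy and 590, 226 and 204 CPM after 100 cGy. All irradiated libraries were above all mock libraries, as they were for VSP1, and the VSP2 differences were 0.87 and 1.25 (limma adjusted p = 0.488 and 0.349). Members without overlap numbered 4 of 8 after 10 cGy (CYP94B1, JOX2, VSP1 and VSP2), against 17.2% of all tested genes, and 3 of 8 after 100 cGy (JOX2, VSP1 and VSP2), against 12.3%. CYP94B1 was below 1 CPM in both groups, at 0.566, 0.790 and 0.651 CPM after 10 cGy and 0.388, 0.550 and 0.254 CPM in mock plants. Its difference there was 0.39 (limma adjusted p = 0.799). The green leaf genes summed to 39640 to 43320 CPM in mock plants at 72 h, 38150 to 39510 CPM after 10 cGy, below mock without overlap, and 36160 to 39820 CPM after 100 cGy, and their part was not tested. CYP94C1 at 72 h had 1.455, 1.197 and 0.874 CPM in mock plants, 0.745, 1.185 and 1.148 CPM after 10 cGy and 1.528, 1.383 and 0.647 CPM after 100 cGy, the 3 groups overlapping, with differences of -0.13 and -0.02.

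No member was called in the direct comparison of 100 cGy with 10 cGy. In limma 0 of 8 members were called at each of the 4 times, against 0.726%, 12.6%, 1.13% and 0% of all tested genes called in either direction at 1, 3, 24 and 72 h. Without adjustment, 0 of 8 had a p below 0.05 at any of these times, and the share of all tested genes at that limit is not given here. The intervals remain wide: for CYP94B3 at 72 h the difference was 1.93 (95% interval -0.06 to 3.91). With both doses taken as 1 mean, CYP94C1 at 1 h was the 1 of 8 members called (2.30, SE 0.40, limma adjusted p = 6.88e-05), against 14.8% of all tested genes called higher, and it was above mock in 6 of 6 irradiated libraries.

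Mock plants, which were never irradiated, changed between harvest times in 5 of these genes. From 1 h to 3 h VSP1 went from 4.46 ± 1.53 to 72.5 ± 52.4 CPM (SD, n = 3), a rise of 3.71 on the log2 scale (SE 0.77, limma adjusted p = 0.000233), and VSP2 from 56.8 ± 27.7 to 353 ± 243 CPM, a rise of 2.53 (SE 0.68, limma adjusted p = 0.00325). CYP94B3 also rose, from 1.98 ± 1.48 to 15.6 ± 10.5 CPM, by 2.57 (SE 0.97, limma adjusted p = 0.0319). These 3 of 8 compare with 24% of all tested genes called higher. All 3 h libraries lay above all 1 h libraries in 5 of 8 members, these 3 with CYP94C1 and CYP94B1. The same held for 29% of all tested genes. JOX2, not called here (1.48, limma adjusted p = 0.0721), passed without mock replicate 3 at 1 h (adjusted p = 0.0431) or replicate 1 at 3 h (0.0305). These were the 2 calls among its 11 alternatives, where limma adjusted p was as high as 0.239. The CYP94B3 call ended without mock replicate 1 or 2 at 1 h or replicate 2 or 3 at 3 h, with adjusted p from 0.0747 to 0.129, and with no filter on low values (0.0525), while the VSP1 and VSP2 calls held in each of the 12 alternatives.

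From 3 h to 24 h in mock plants VSP1 fell by 1.92 (SE 0.77, limma adjusted p = 0.0351) and VSP2 by 1.98 (SE 0.68, limma adjusted p = 0.0155), 2 of 8 members against 27.7% of all tested genes called lower. Both calls ended without mock replicate 3 at 3 h (adjusted p = 0.178 and 0.105) or without mock replicate 1 at 24 h (0.326 and 0.152), the high and the low library of their groups, and the VSP1 call also ended with no filter on low values (0.0566). From 24 h to 72 h CYP94B1 fell by 2.70 (SE 0.71, limma adjusted p = 0.00293), from 6.65 ± 5.39 to 0.40 ± 0.15 CPM (SD, n = 3). CYP94B3 fell by 2.56 (limma adjusted p = 0.0334) and JOX2 by 1.87 (limma adjusted p = 0.0243), 3 of 8 against 20.7% called lower. The other tested inactivation genes, CYP94C1 (-0.52, limma adjusted p = 0.394), JOX3 and JOX4, were not called, nor were VSP1 and VSP2. The CYP94B3 value of mock replicate 1 at 72 h was 1 read. CYP94B1 was called in each of the 12 alternatives, while CYP94B3 and JOX2 were lost without mock replicate 2 or 3 at 24 h or replicate 1 at 72 h, with adjusted p from 0.0884 to 0.141, and CYP94B3 with no filter on low values (0.0548). Between 72 h and 1 h 0 of 8 members were called in limma, against 33.4% of all tested genes called in either direction, and 0 had an unadjusted p below 0.05. Time after exposure and the hour of day or age at harvest cannot be told apart here.

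The 12 group means of CYP94C1 ran, from high to low, through the 100 and 10 cGy plants at 1 h (9.26 and 9.01 CPM), the 100 and 10 cGy plants at 3 h (5.61 and 5.49 CPM), mock plants at 3 h (2.73 CPM), the 24 h groups (2.56, 2.07 and 1.91 CPM for 10 cGy, 100 cGy and mock), mock plants at 1 h (1.32 CPM) and the 72 h groups (1.03 to 1.19 CPM). Of the 11 steps between neighbours in that order, 2 exceeded the larger of the neighbours' SDs, those from 10 cGy to mock at 3 h and from mock at 24 h to mock at 1 h. CYP94B3, JOX2, JOX3, JOX4, VSP1 and VSP2 had their highest mean in the 10 cGy plants at 3 h and CYP94B1 in the 100 cGy plants at 3 h, next to its 10 cGy mean (11.6 and 10.9 CPM). The lowest mean was in mock plants at 72 h for all P450 and JOX genes tested other than CYP94C1, and at 1 h for VSP1 (mock) and VSP2 (10 cGy). In these 7 genes 0 to 3 of the 11 neighbouring steps exceeded the larger SD.

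The members varied between libraries of the same group far more than most genes. Their within-group SD on the log2 scale was 0.61 for CYP94C1, 0.88 for JOX2, 0.91 for VSP2, 0.94 for CYP94B1, 1.01 for VSP1, 1.22 for JOX3, 1.28 for CYP94B3 and 1.35 for JOX4, where the median of all tested genes was 0.13. Between 97.8% and 99.8% of all tested genes had a lower SD, and each member's SD was largest at 24 h, from 0.91 for CYP94C1 to 1.84 for JOX4. Among the 500 tested genes nearest in mean level to each member, 94.6% to 100% had a lower SD.

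The members also deviated together. Over 36 libraries the correlation of deviations from the group mean was between 0.44 and 0.96 for the 28 pairs of members, with a median of 0.76 and the highest value for VSP1 with VSP2, and the points of a group share their library. Mock replicate 3 at 1 h was above its group mean in 8 of 8 genes, by 0.78 on average. Among the 100 cGy plants at 72 h replicate 1 was above in 8 of 8, by 1.00, and replicate 3 in 0 of 8, at -1.10. A single high or low library therefore moves most of the 8 genes at once, and they are not 8 separate observations of a group.

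**Figure D3:**
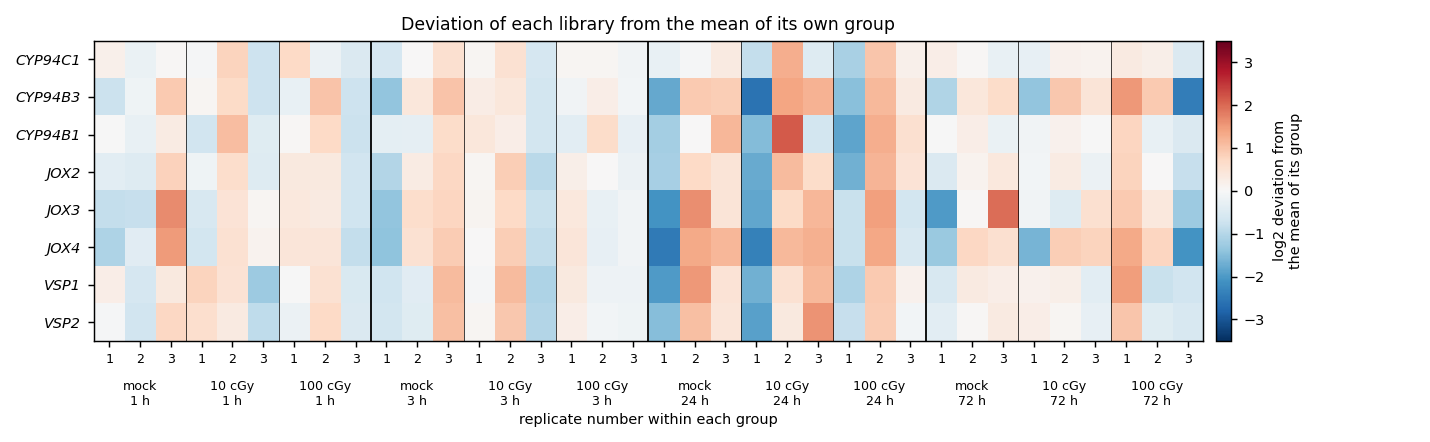
Deviation of each library from the mean of its own group on the log2(CPM + 0.5) scale (colour; red above, blue below) for the 8 tested genes (rows) in the 36 libraries (columns, by group and replicate number). The columns tend to hold 1 colour, and the libraries numbered 1 at 24 h are blue for all 8 genes in all 3 groups.

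For each member the 3 other genes with the most similar level over the 36 libraries were taken by Pearson r on the log2 scale. For CYP94C1 these were the allene oxide cyclase gene AOC3 (r 0.92), AT5G19230 (0.92) and DAD1 (0.91), a lipase gene of jasmonate synthesis. RAP2.6, an ERF-type transcription factor gene, came first for CYP94B3 (0.97), JOX2 (0.96) and JOX4 (0.93), followed by ADC2, an arginine decarboxylase gene of polyamine synthesis, for CYP94B3 (0.92) and JOX4 (0.90). Next came PNC2 for CYP94B3 (0.91) and MES5 for JOX4 (0.89), and JOX2 was followed by the amidohydrolase gene IAR3 (0.96) and the repressor gene JAZ1 (0.95). CYP94B1 went with the repressor genes JAZ5 (0.93) and JAZ10 (0.91) and with MAPKKK21 (0.91), and JOX3 with ELI3-2 (0.95), AT4G22470 (0.92) and Rap2.6L (0.91). VSP1 went with CORI3 (0.97), the dehydroascorbate reductase gene DHAR1 (0.97) and the chlorophyllase gene CLH1 (0.95), and VSP2 with AT1G14250 (0.98), the beta-amylase gene BAM5 (0.97) and the sugar transporter gene SWEET16 (0.96). These correlations include the differences between groups, and for these genes the correlation of the deviations within groups alone was 0.74 to 0.96.

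The rest of the jasmonate pathway, taken by role, showed calls in both directions at 1 h. Of all tested genes 13.6% were called higher after 10 cGy and 10.3% after 100 cGy, and 11.8% and 7.37% lower. Of 15 tested synthesis genes 3 rose after 10 cGy and 4 after 100 cGy with none lower, among them AOC3 (2.16 and 1.92) and DAD1 (1.09 and 1.02). Of 22 signalling genes 6 rose at each dose, such as the JAZ repressor genes JAZ2 (1.25 and 1.41) and JAZ6 (1.16 and 1.44), while 2 fell after 10 cGy and 1 after 100 cGy, including MYC5, a transcription factor gene, which fell by 1.16 and by 1.00. Of 12 other output genes 1 rose after 10 cGy (NAC055, a NAC factor gene, 2.27) and 0 after 100 cGy, where in limma 0 had an unadjusted p below 0.05. Of 5 tested genes of other turnover steps none was called at either dose, and 1 had an unadjusted p below 0.05 at each. The median difference was 1.14 and 1.18 for the 8 inactivation and storage genes, 0.37 and 0.47 for synthesis, 0.25 and 0.31 for signalling, 0.31 and 0.17 for other turnover and -0.05 and 0.43 for other output, beside -0.01 and 0.02 over all tested genes.

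At 3 h the median of each of these lists was above 0 at both doses. After 10 cGy 1 gene of the 4 lists was called and after 100 cGy genes of 3 of them, where 0.774% and 10.6% of all tested genes were called higher. Among the other turnover genes JMT, the jasmonate methyltransferase gene, rose by 0.98 after 10 cGy (limma adjusted p = 0.0403) and 0.96 after 100 cGy (limma adjusted p = 0.0138), 1 of 5 at each dose, and the medians were 1.25 and 1.10. Synthesis genes had medians of 0.80 and 0.71 with 0 and 2 of 15 called, including JAR1, the conjugating enzyme gene that makes JA-Ile (0.37 after 100 cGy). Signalling genes had medians of 0.62 and 0.72 with 0 and 5 of 22 called higher, and other output genes 1.24 and 1.05 with 0 of 12 called at each dose and 5 and 1 with an unadjusted p below 0.05. After 10 cGy, 12 of the 15 synthesis genes and 10 of the 22 signalling genes had an unadjusted p below 0.05 in limma while none was called. The share of all tested genes at that unadjusted limit is not given here, so these counts have no background. At 24 h no gene of these 4 lists was called in limma, against 3.29% and 0.599% of all tested genes called in either direction, and 4 of the 54 tested had an unadjusted p below 0.05 after 10 cGy and 1 after 100 cGy. At 72 h 1 of the 54 was called at each dose, LOX6 after 10 cGy (0.40) and JAZ4 after 100 cGy (0.60), against 9.38% and 1.58%.

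**Figure D4:**
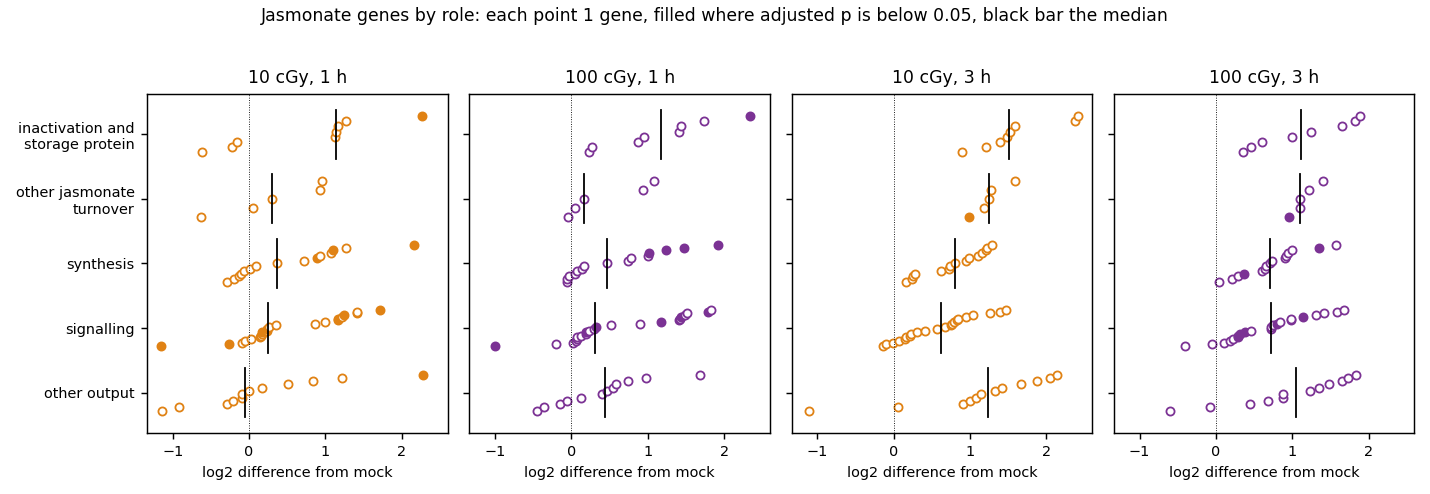
Difference from mock on the log2(CPM + 0.5) scale (x axis) for jasmonate genes by role (rows) at 1 h and 3 h after 10 cGy (orange) and 100 cGy (purple); each point is 1 gene, filled where the adjusted p is below 0.05, and the black bar is the median of the list. At 3 h all 8 points of the inactivation and storage row lie above 0 at both doses, with medians of 1.51 and 1.12, and the filled point at 1 h is CYP94C1.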

How the data were processed

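Per the labels' protocols, poly(A)-selected RNA from whole rosettes was made into strand-marking libraries. The submitters' processing notes name Trimmomatic 0.32, STAR 2.5.2b, RSEM 1.2.28 and the TAIR10 build. The main values are CPM deposited by the authors, which sum to 1000000 in each library. A second table holds the natural log of CPM + 1, deposited by the authors, and differs from that transform of the first by at most 4.1e-09. Whole reads were recovered for 88.8% to 90.6% of the values per library (tolerance 0.02), so no count model was used.

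Differences were fitted with limma 3.58.1 in R 4.3.3 on log2(CPM + 0.5), with 1 mean for each of 12 groups over 36 libraries, an intensity trend, and Benjamini-Hochberg adjustment over the 18875 tested genes within each of 29 contrasts. Calls are at an adjusted p of 0.05. The pseudocount understates the change of low genes. An exact permutation test of 3 against 3 cannot go below 0.1 and was not used. The fit was first tested on simulated data. Replicate numbers were checked for pairing and not used as a block in the reported fit.

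The 9 genes and the pathway lists were chosen with earlier results of these data known. The text names all 9, up to 4 genes per list, taken by lowest p among those called after irradiation, and the 3 genes most like each member. Loci matched the RefSeq TAIR10.1 annotation for 9 of 9 genes. Other settings tried were 2 pseudocounts, no filter, rescaling by median ratios, fits within a time, a replicate block, no trend and leaving out each library. Summing VSP1 with VSP2, and leaving out the 24 h libraries numbered 1, were added after seeing the data.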

Additional observations from a re-analysis of the deposited data

How the results depend on the processing

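Across the alternatives no called value changed sign. Of all member values, called or not, 23 of 1642 under another setting and 193 of 2064 with 1 library left out changed sign, none of them called in the reported fit. With the libraries of the time only, members called were 2 after 10 cGy and 3 after 100 cGy at 1 h, 1 after 100 cGy at 3 h and 3 for both doses at 1 h, against 1, 1, 0 and 1. Calls over all tested genes at 1 h also rose in this fit. They numbered 5253 after 10 cGy against 4782, 3683 after 100 cGy against 3328 and 5356 for both doses against 4998. With the replicate block the members called were 3 after 100 cGy and 3 for both doses at 1 h, and 1 after 100 cGy and 1 for both doses at 3 h, the added genes being CYP94B1 and, at 1 h, JOX2. The numbers were not taken to pair the libraries, since not every same-numbered pair correlated above 0.1: same-numbered deviations over all tested genes had median correlations of -0.14, -0.02, 0.31 and -0.05 at 1, 3, 24 and 72 h, but at 24 h 7 of 9 pairs were above 0.1 and 13 of 18 comparisons were highest for a library's own number, a hint from the data and not from the design. No filter on low values left 1 called member between 3 h and 24 h in mock plants in place of 2. Leaving out 1 library gave 0 to 2 members called after 100 cGy and 0 to 1 for both doses at 72 h, 0 to 1 for the change of the 10 cGy effect from 3 h to 24 h (CYP94B1, without 10 cGy replicate 2 at 24 h), and in mock plants 2 to 4 from 1 h to 3 h, 0 to 2 from 3 h to 24 h and 1 to 5 from 24 h to 72 h. Leaving out the 24 h libraries numbered 1 together gave 0 and 5 for the last pair of intervals. The reported fit shares 1 estimate of spread per gene over all times. The within-group SD of JOX2 was 0.62 at 1 h and 1.37 at 24 h. That of CYP94B1 was 0.71 at 1 h, 0.56 at 3 h and 1.61 at 24 h. The cause of these shifts was not tested.

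Over all tested genes the fit within a time gave 24 calls after 10 cGy at 3 h against 282, 512 after 100 cGy at 3 h against 2346, 0 and 1 at 24 h against 621 and 113, and 693 and 41 at 72 h against 1771 and 299. Rescaling by median ratios moved the median of all genes by about 0.1 in the 100 cGy comparison at 3 h, from 0.09 to -0.01, and each member stayed above mock there. CYP94B1 and CYP94C1 had medians of 73.5 and 56 reads a library, the lowest among the tested members. The part of counting error in their spread was not tested. JOX1 was below what this depth can compare.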
